A study of Mus musculus with 11 samples.

Results

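Extracellular adenosine is made from released ATP and ADP by ecto-nucleotidases on the cell surface, signals through G protein-coupled receptors, and is cleared by deamination or by uptake into cells. The data below are for 9 mouse genes of that pathway, chosen by name with earlier results of these data known. They are the ecto-nucleotidases Nt5e, Entpd1 and Entpd2, the adenosine receptors Adora1, Adora2a and Adora2b, the deaminase Ada, the peptidase Dpp4 and the transporter Slc29a1. All 9 were found by symbol among the 36528 genes of the deposited tables, and 8 had enough counts to be tested, with Adora2a left out by the low-count filter.

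PolyA RNA was sequenced from 11 libraries of cell lines grown out of mouse liver tumours, in 3 groups named for the mutant coactivator in the tumour. The groups are YAP-S127A (3 libraries), YAP-5SA (3 libraries, spelled YAP-S5A on the samples) and TAZ-S89A (5 libraries). YAP and TAZ are transcriptional coactivators held in check by the Hippo kinases, and each mutant lacks 1 or more serines that those kinases phosphorylate. The sources used here do not give age, strain, the promoter behind a mutant or any treatment, and every library analysed here is labelled with a mutant. Whether the libraries of a group come from separate tumours, lines or cultures is not stated, so each p-value sets a difference against library-to-library spread that could be technical. A difference between mutants therefore cannot be told apart from a difference between lines.

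Total counts ran from 20071144 to 49159713 per library. TAZ-S89A replicates 4 and 5 carry sample IDs of a second number series and have the smallest totals. The 2 differed from each other by a chi-square of 2.08 per degree of freedom over genes, and replicates 1 and 2 by 5.98, against 110.0 to 236 for the other TAZ-S89A pairs. The 5 TAZ-S89A libraries are thus not equally distinct. The same holds for the YAP groups, whose pairs ran from 6.72 to 35.7 in YAP-S127A and from 16.8 to 142.6 in YAP-5SA. Of 10 hepatocyte markers, only Apob and Hnf4a averaged at least 1 CPM in the YAP groups and only Apob in TAZ-S89A. Apob was at 76.85, 726 and 2.09 CPM in YAP-S127A, YAP-5SA and TAZ-S89A, and Hnf4a at 8.26, 7.16 and 0.677 CPM. Of 7 biliary markers, 6 averaged at least 1 CPM in every group. The other was Epcam, at 0.128, 0.0825 and 0.0953 CPM in that order of groups. Levels of the biliary markers differed widely between groups and not in 1 direction. Krt7 was at 101.8, 1744 and 1.41 CPM in YAP-S127A, YAP-5SA and TAZ-S89A, and Spp1 at 326, 203 and 2737 CPM. CPM are counts relative to library size after scaling by trimmed mean of M-values (TMM).

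As background, ENTPD1 (CD39) and ENTPD2 take phosphates off extracellular ATP and ADP, and NT5E (CD73) converts the resulting AMP to adenosine. The receptor encoded by Adora1 lowers cyclic AMP, whereas those of Adora2a and Adora2b raise it, and the Adora2b receptor needs the most adenosine. ADA turns adenosine into inosine, and SLC29A1 (ENT1) lets adenosine flow across the membrane in either direction. DPP4 (CD26) is a serine peptidase that anchors ADA at the surface of human cells. In tumours, adenosine made by CD39 and CD73 is known for dampening T cells.

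In TAZ-S89A libraries, the Nt5e and Entpd1 transcripts stood far below the YAP groups, while Slc29a1 stood above both and Adora1 did so at a low level. Entpd2 was not called in any comparison. Against YAP-S127A, 7 of the 8 tested genes were called, 3 higher (Adora1, Ada, Slc29a1) and 4 lower (Nt5e, Entpd1, Adora2b, Dpp4). A call is a Benjamini-Hochberg adjusted p under 0.05 over all genes in edgeR's quasi-likelihood test. Against YAP-5SA, 6 were called, with Adora1, Adora2b and Slc29a1 higher and Nt5e, Entpd1 and Dpp4 lower. Between the YAP groups 4 were called, and YAP-5SA had more Entpd1 and Ada and less Adora2b and Slc29a1 than YAP-S127A. Of all 18224 tested genes, 57.6% (27.0% higher, 30.6% lower), 57.9% (26.9% higher, 31.0% lower) and 55.2% (28.2% higher, 27.0% lower) were called in these comparisons, so calls alone say little about the pathway. Libraries of the compared groups did not overlap for 7, 6 and 4 tested members, beside 57.8%, 52.0% and 69.6% of all genes. Asking also for a log2 fold change of at least 1 in size left 6, 6 and 4 members, beside 32.2%, 33.8% and 34.4% of all genes. The median size of the members' log2 fold change was 2.13, 2.19 and 0.72, beside 0.635, 0.66 and 0.68 over all tested genes. The members' median with its sign was -0.67, -0.26 and -0.19, beside -0.03, -0.04 and 0.01. Members were chosen with earlier results of these data known, so these counts and medians cannot show whether the pathway differed more than other genes. The comparisons share libraries, so they are not independent of each other.

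**Figure D1:**
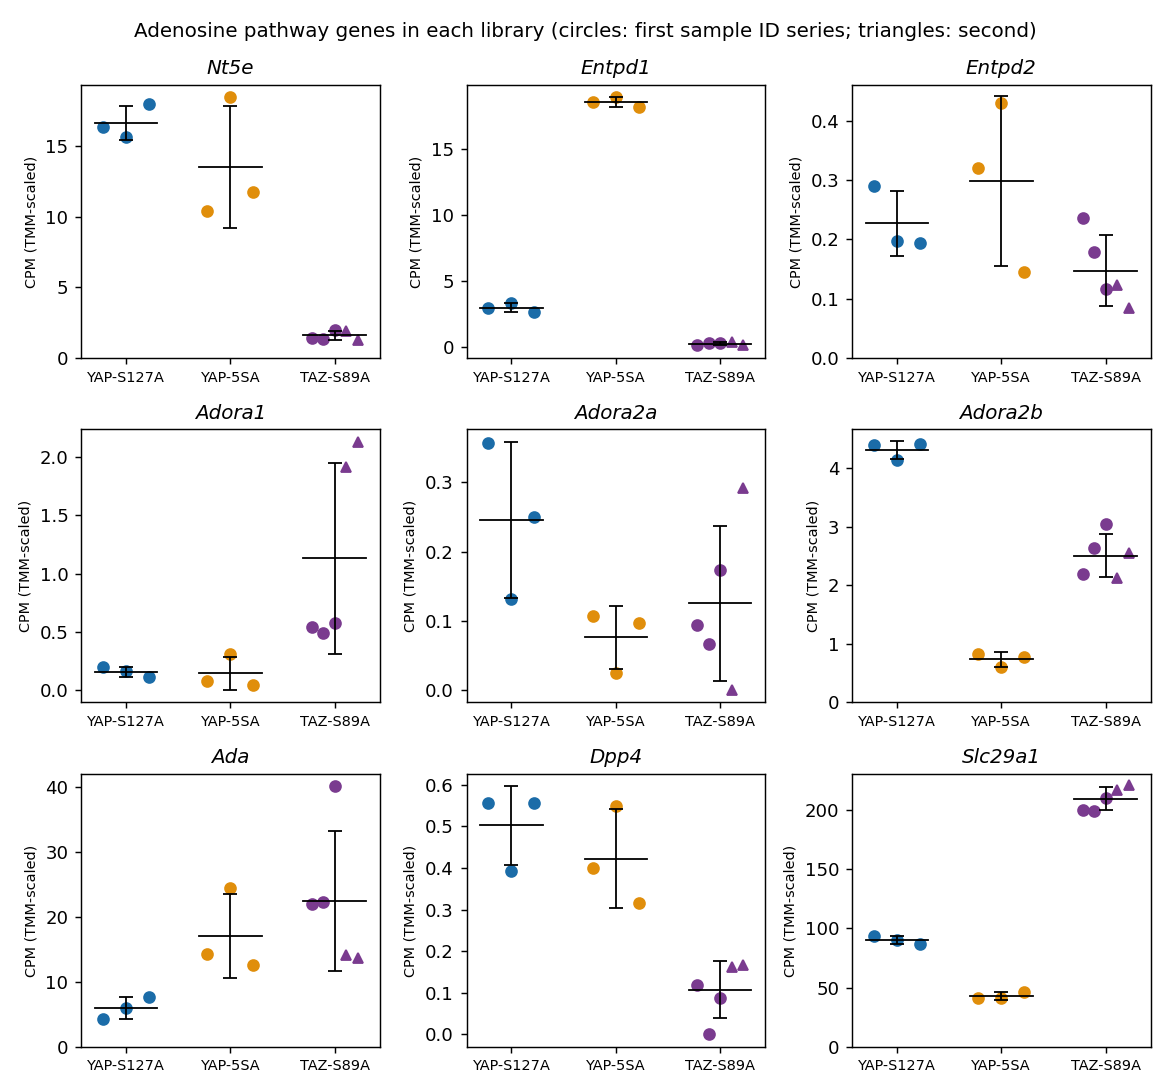
CPM of the 9 genes (vertical axes, linear, a scale per gene) in each library by mutant group, where points are libraries, long lines means and whiskers the SD. Triangles are TAZ-S89A replicates 4 and 5. Nt5e is at most 2.001 CPM in TAZ-S89A and at least 10.4 in every YAP library, and Slc29a1 takes 3 separate levels.

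**Figure D2:**
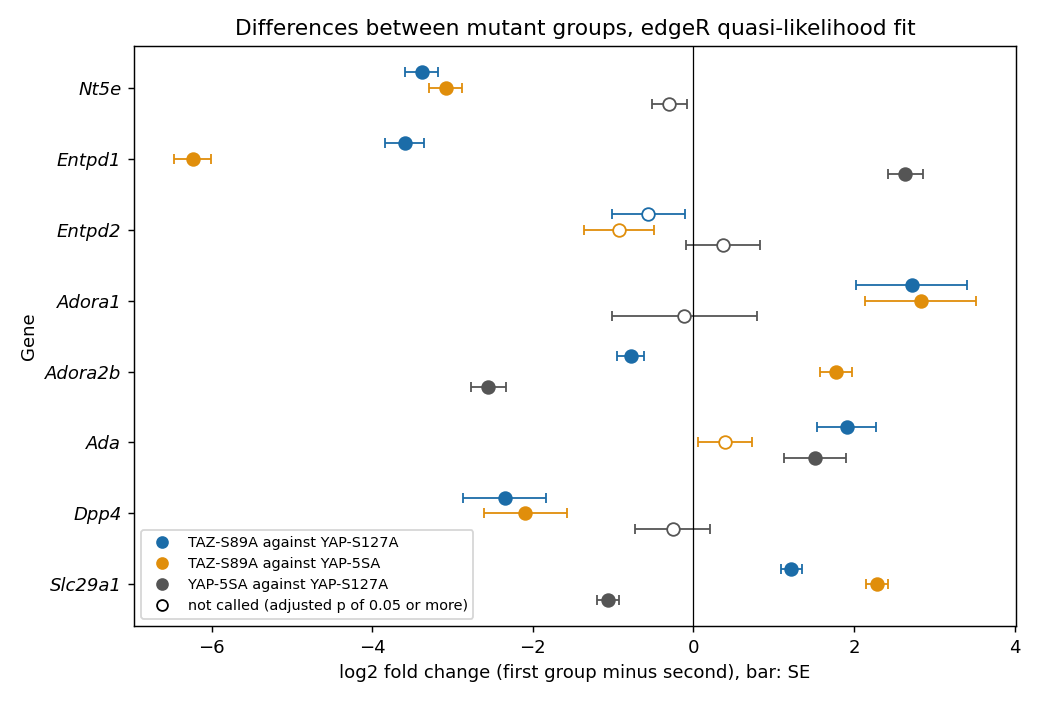
Log2 fold change (horizontal axis, first group minus second) of the 8 tested genes in the 3 comparisons, with the SE as whiskers. Filled points passed the adjusted p of 0.05. Entpd1 spans from -6.23 to 2.64, and Adora2b changes sign between the comparisons of TAZ-S89A with the 2 YAP groups.

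Nt5e (Entrez gene 23959, GRCm38 chromosome 9, 88327609 to 88372089) encodes the enzyme that makes the adenosine. Its level was 16.3, 15.6 and 18.0 CPM in YAP-S127A replicates 1 to 3, and 10.4, 18.5 and 11.7 CPM in YAP-5SA replicates 1 to 3. In TAZ-S89A replicates 1 to 5 it was 1.44, 1.36, 2.001, 1.88 and 1.29 CPM. Every TAZ-S89A library was below every YAP library, while the YAP groups overlapped. Nt5e was 10.45-fold lower in TAZ-S89A than in YAP-S127A (log2 fold change -3.39, SE 0.20, adjusted p = 6.76e-09, edgeR) and 8.49-fold lower than in YAP-5SA (-3.09, SE 0.20, adjusted p = 1.47e-08). Between YAP-5SA and YAP-S127A it was not called (-0.30, 95% interval -0.76 to 0.16, adjusted p = 0.251, edgeR). Without YAP-5SA replicate 2, the highest of that group, it was called lower in YAP-5SA (-0.59, adjusted p = 0.0213, range 0.0213 to 0.640 over 20 alternatives). In these bulk libraries, fewer cells with the transcript and less transcript per cell cannot be told apart.

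Genes around Nt5e were also lower in TAZ-S89A, by less. The median log2 fold change of the 39 tested genes whose start lies within 5 Mb was -0.81 (YAP-S127A) and -0.55 (YAP-5SA). Over the 907 tested genes of chromosome 9 it was -0.67 and -0.56. Of the 39 neighbours, 4 had a lower value than Nt5e in the first comparison and 3 in the second. The part of the chromosome in the Nt5e difference was not tested.

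Entpd1 (Entrez gene 12495, chromosome 19, 40612366 to 40741602) encodes the enzyme a step upstream and separated all 3 groups. YAP-S127A libraries held 2.94, 3.35 and 2.64 CPM and YAP-5SA libraries 18.6, 18.9 and 18.2 CPM, against 0.118, 0.267, 0.290, 0.408 and 0.167 CPM in TAZ-S89A. No group overlapped another, and the YAP-5SA libraries lay within 1 CPM of each other. TAZ-S89A rests on 41 counts over 5 libraries, against 2235 counts in YAP-5SA. Entpd1 was 75.2-fold lower in TAZ-S89A than in YAP-5SA (-6.23, SE 0.23, adjusted p = 3.99e-11, edgeR) and 12.1-fold lower than in YAP-S127A (-3.59, SE 0.24, adjusted p = 2.27e-08). YAP-5SA exceeded YAP-S127A by 6.23-fold (2.64, SE 0.22, adjusted p = 2.06e-07).

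Leukocytes and endothelial cells are known for abundant CD39, so their markers were measured beside Entpd1. The summed level of 12 leukocyte markers was 53.8 to 56.5 CPM in YAP-5SA, 15.9 to 16.3 in YAP-S127A and 8.52 to 10.3 in TAZ-S89A, the same order as Entpd1. Csf1r, Cd68 and Lyz2 made up most of it, at 28.2, 8.47 and 15.96 CPM in YAP-5SA. Their levels were 7.60, 5.73 and 1.34 CPM in YAP-S127A and 1.82, 6.47 and 0.167 in TAZ-S89A. Csf1r and Lyz2 thus had the order of Entpd1, while Cd68 was not lower in TAZ-S89A than in YAP-S127A. The pan-leukocyte marker Ptprc averaged 0.330 CPM for YAP-S127A, 0.181 for YAP-5SA and 0.194 for TAZ-S89A. The part of the macrophage genes in the Entpd1 difference was not tested. The 8 endothelial markers summed to 9.09 to 11.3 CPM (YAP-S127A), 1.28 to 1.57 (YAP-5SA) and 0.377 to 1.14 (TAZ-S89A), with Emcn at 7.61 CPM making up most of the YAP-S127A sum. Pecam1 averaged 0.360 CPM for YAP-5SA, 0.137 for YAP-S127A and 0.0779 for TAZ-S89A, and Vwf 0.198, 0.147 and 0.0214 CPM, which is the order of Entpd1 at a far lower level. Other endothelial markers had other orders. Kdr (1.25, 0.240 and 0.101 CPM in YAP-S127A, YAP-5SA and TAZ-S89A) and Tek (0.354, 0.0581 and 0.0305) were highest in YAP-S127A. Cdh5 was lowest there (0.00926, 0.122 and 0.0791), and Stab2 was similar in all groups (0.337, 0.340 and 0.366). Emcn and Lyve1 were at 0 in TAZ-S89A. The 10 fibroblast and stellate markers summed to 5441 to 6013 CPM (YAP-S127A), 278 to 377 (YAP-5SA) and 1787 to 3395 (TAZ-S89A), and their members differed in order. Col1a2 carried the TAZ-S89A sum, at 2219 CPM beside 2274 in YAP-S127A and 16.2 in YAP-5SA. Col1a1 (2950, 322 and 30.98 CPM in YAP-S127A, YAP-5SA and TAZ-S89A), Pdgfra (102.5, 1.22 and 0.1465) and Thy1 (1.755, 0.262 and 0) had the order of the Nt5e means. Dcn (6.92, 0.590 and 0.582) was highest in YAP-S127A and about equal in the other groups. Pdgfrb had another order (473.9, 1.12 and 267.9), far higher in TAZ-S89A than in YAP-5SA. Des was highest in YAP-5SA and Reln in TAZ-S89A, and Lrat and Lum were at 0 in YAP-S127A and TAZ-S89A. Among hepatocyte and biliary markers, Apob, Krt7 and Krt19 (55.95, 1372 and 7.385 CPM in YAP-S127A, YAP-5SA and TAZ-S89A) also had the order of Entpd1. Hnf4a and the other biliary markers did not. The part of the endothelial, fibroblast, hepatocyte and biliary genes in the Nt5e and Entpd1 differences was not tested.

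Entpd2 (Entrez gene 12496, chromosome 2, 25395874 to 25401323), which prefers ATP over ADP, was scarce in all groups. There were 26 counts over YAP-S127A, 36 over YAP-5SA and 27 over TAZ-S89A, or 0.227 ± 0.05435 (SD, n = 3), 0.299 ± 0.144 (n = 3) and 0.147 ± 0.0602 CPM (n = 5). The groups overlapped and no comparison was called. The log2 fold change of TAZ-S89A against YAP-S127A was -0.56 (95% interval -1.54 to 0.42, adjusted p = 0.310, edgeR), and against YAP-5SA it was -0.93 (-1.86 to 0.002, adjusted p = 0.0811). The latter was called without YAP-5SA replicate 3 (adjusted p = 0.0231) or without TAZ-S89A replicate 1 (0.0488), and 19 alternatives spanned 0.0231 to 0.360.

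The sequence before the transcription start is shown for 3 genes with large differences between groups (Nt5e, Entpd1, Adora2b), and for Dpp4 because it holds a TEAD word, since YAP and TAZ reach DNA through TEAD factors. RefSeq promoters (GRCm38.p6) were present for 8 of the 9 genes, Adora2a being the other. Each window ran from 250 bases before to 50 bases after the start, and the 250 bases before the start are printed 5′ to 3′ on the gene's strand. Capitals mark 5 words on either strand, GGAATG (TEAD), TGACG (core of the cyclic AMP response element), ACGTG (hypoxia response core), TGANTCA (AP-1) and GGGCGG (SP1). Of 32851 promoters of that length, 14.7%, 20.8%, 19.6%, 7.81% and 35.7% held these words.
Nt5e, chr9:88327359-88327608, plus strand: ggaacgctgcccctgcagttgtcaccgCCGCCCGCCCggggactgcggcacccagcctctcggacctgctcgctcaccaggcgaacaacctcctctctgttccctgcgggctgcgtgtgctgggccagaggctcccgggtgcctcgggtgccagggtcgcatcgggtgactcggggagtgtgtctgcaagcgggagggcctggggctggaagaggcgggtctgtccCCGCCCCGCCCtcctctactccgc
Entpd1 (its first start), chr19:40612116-40612365, plus strand: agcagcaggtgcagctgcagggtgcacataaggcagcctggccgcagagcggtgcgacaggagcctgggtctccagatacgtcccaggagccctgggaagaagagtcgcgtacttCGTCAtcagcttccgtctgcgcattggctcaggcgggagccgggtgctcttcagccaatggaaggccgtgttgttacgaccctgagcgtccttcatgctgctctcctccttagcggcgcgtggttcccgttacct
Adora2b, chr11:62248734-62248983, plus strand: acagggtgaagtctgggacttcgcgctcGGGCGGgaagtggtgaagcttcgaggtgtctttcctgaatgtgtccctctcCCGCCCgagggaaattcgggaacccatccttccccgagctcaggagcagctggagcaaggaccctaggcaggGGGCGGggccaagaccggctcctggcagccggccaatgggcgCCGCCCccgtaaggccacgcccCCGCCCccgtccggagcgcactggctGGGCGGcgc
Dpp4, chr2:62412232-62412481, minus strand: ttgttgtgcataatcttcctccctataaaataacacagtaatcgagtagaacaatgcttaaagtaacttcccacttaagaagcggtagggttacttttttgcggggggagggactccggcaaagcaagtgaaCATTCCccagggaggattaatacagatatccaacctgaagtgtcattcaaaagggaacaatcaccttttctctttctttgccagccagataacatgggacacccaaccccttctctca
Counted from 0 at the start base, the Nt5e window held SP1 words beginning at -223, -219, -24 and -19, and the first 2 and last 2 overlap each other. Its GC content was 71.0%, against a median of 52.7% over all promoters. Entpd1 held the cyclic AMP response word at -135, Adora2b held 6 SP1 words, and Dpp4 held a TEAD word at -118 with a GC content of 45.3%. The TEAD word also stood in a window of Entpd2, Adora1 and Slc29a1. A word is a description of letters and not a binding site, and its absence from a window says nothing about the factor.

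Among the receptors, Adora2b (Entrez gene 11541, chromosome 11, 62248984 to 62266452) was the main transcript in every library. Per length, on the authors' nRPKM scale (reads adjusted for gene length and library size), it took 75.6% to 97.2% of the summed level of the 4 adenosine receptor genes. YAP-S127A libraries held 4.39, 4.13 and 4.42 CPM and YAP-5SA libraries 0.829, 0.598 and 0.775 CPM. TAZ-S89A libraries held 2.19, 2.63, 3.05, 2.12 and 2.55 CPM. The groups did not overlap, with YAP-S127A on top and YAP-5SA at the bottom. Adora2b was 5.87-fold lower in YAP-5SA than in YAP-S127A (-2.55, SE 0.21, adjusted p = 2.45e-07, edgeR). TAZ-S89A was 1.72-fold below YAP-S127A (-0.78, SE 0.17, adjusted p = 0.00142) and 3.42-fold above YAP-5SA (1.77, SE 0.20, adjusted p = 3.91e-06).

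Adora1 (Entrez gene 11539, chromosome 1, 134199215 to 134235457) was low in the YAP groups, with 18 counts over each. YAP-S127A libraries held 0.201, 0.164 and 0.111 CPM, and YAP-5SA libraries 0.0802, 0.311 and 0.0484 CPM. TAZ-S89A replicates 1 to 3 were at 0.543, 0.490 and 0.580 CPM, and replicates 4 and 5 of the second ID series at 1.92 and 2.13 CPM. All TAZ-S89A libraries were above all YAP libraries, and within TAZ-S89A the second series averaged 3.76 times the first. Adora1 was higher in TAZ-S89A by 6.59-fold against YAP-S127A (2.72, SE 0.69, adjusted p = 0.00404, edgeR) and by 7.115-fold against YAP-5SA (2.83, SE 0.69, adjusted p = 0.0029). Without the second series the calls stayed, at 1.70 (adjusted p = 0.0119) and 1.85 (adjusted p = 0.00691). Without YAP-5SA replicate 2, the second value became 4.005. Adora1 overlaps Mybph in the annotation, and since the strand setting is not known its reads cannot be fully assigned, though Mybph held only 32 counts in all libraries.

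Adora2a (Entrez gene 11540, chromosome 10, 75316877 to 75334792), the receptor best known from T cells, had 29 counts over YAP-S127A, 9 over YAP-5SA and 20 over TAZ-S89A. Pooled in that order, this is 0.2605 CPM (95% Poisson interval 0.174 to 0.374), 0.0747 (0.0341 to 0.142) and 0.1175 (0.0718 to 0.1815), intervals that cover counting error only. TAZ-S89A replicate 4 had 0 counts, which allows up to 0.122 CPM. The remaining receptor gene, Adora3, had 2 counts in all, 1 in each of YAP-5SA replicates 2 and 3.

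Ada (Entrez gene 11486, chromosome 2, 163726571 to 163750239), the deaminase, was lowest in YAP-S127A. It was at 4.28, 6.04 and 7.70 CPM there, at 14.3, 24.4 and 12.5 CPM in YAP-5SA, and at 21.9, 22.4, 40.2, 14.1 and 13.7 CPM in TAZ-S89A. Every library of the other groups was above YAP-S127A, while YAP-5SA and TAZ-S89A overlapped. Ada was 3.76-fold higher in TAZ-S89A (1.91, SE 0.37, adjusted p = 0.000515, edgeR) and 2.85-fold higher in YAP-5SA (1.51, SE 0.39, adjusted p = 0.0044) than in YAP-S127A. TAZ-S89A against YAP-5SA was not called (0.40, 95% interval -0.325 to 1.12, adjusted p = 0.330, edgeR). The second TAZ-S89A series averaged 0.4925 times the first, and without it that comparison was called (0.74, adjusted p = 0.0452, range 0.0452 to 0.746 over 20 alternatives).

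Dpp4 (Entrez gene 13482, chromosome 2, 62330073 to 62412315) was scarce, with 57 counts over YAP-S127A, 51 over YAP-5SA and 16 over TAZ-S89A. YAP-S127A libraries held 0.557, 0.394 and 0.556 CPM, and YAP-5SA libraries 0.401, 0.550 and 0.315 CPM. TAZ-S89A replicate 2 had 0 counts, which allows up to 0.0669 CPM, and the other 4 lay between 0.0870 and 0.167 CPM. TAZ-S89A was below every YAP library, and the YAP groups overlapped. Dpp4 was 5.105-fold lower in TAZ-S89A than in YAP-S127A (-2.35, SE 0.51, adjusted p = 0.0014, edgeR) and 4.26-fold lower than in YAP-5SA (-2.09, SE 0.52, adjusted p = 0.00338). Between the YAP groups the value was -0.26 (95% interval -1.26 to 0.74, adjusted p = 0.658).

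Slc29a1 (Entrez gene 63959, chromosome 17, 45585200 to 45599618), the equilibrative transporter, was the most abundant of the 9 genes per length in every library. YAP-S127A libraries held 93.4, 90.4 and 86.5 CPM and YAP-5SA libraries 41.2, 41.4 and 46.6 CPM. TAZ-S89A libraries held 199.97, 199.3, 210.0, 217 and 221 CPM. The 3 levels were well apart, and the libraries of each group lay close together. TAZ-S89A was 2.325-fold above YAP-S127A (1.22, SE 0.13, adjusted p = 2.28e-06, edgeR) and 4.87-fold above YAP-5SA (2.28, SE 0.14, adjusted p = 4.65e-09). YAP-5SA was 2.09-fold below YAP-S127A (-1.07, SE 0.14, adjusted p = 1.96e-05). The chromosome moved the same way: the median over 843 tested genes of chromosome 17 was 0.20, 0.95 and -0.70 in these comparisons. Over the 100 genes within 5 Mb of Slc29a1 it was 0.30, 0.87 and -0.44. The part of the chromosome in the Slc29a1 differences was not tested. For the other tested members, medians within 5 Mb follow in the same order of comparisons. They were 0.26, 0.07 and 0.30 around Entpd1, and 0.21, -0.03 and 0.32 around Entpd2. Around Adora1 they were -0.39, -0.08 and 0.03, and around Adora2b 0.19, -0.11 and 0.43. Ada had 0.30, -0.08 and 0.41, and Dpp4 0.25, 0.12 and 0.08. In TAZ-S89A against YAP-S127A, Ada had the sign of its median, and Entpd1, Entpd2, Adora1, Adora2b and Dpp4 the opposite sign.

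**Figure D3:**
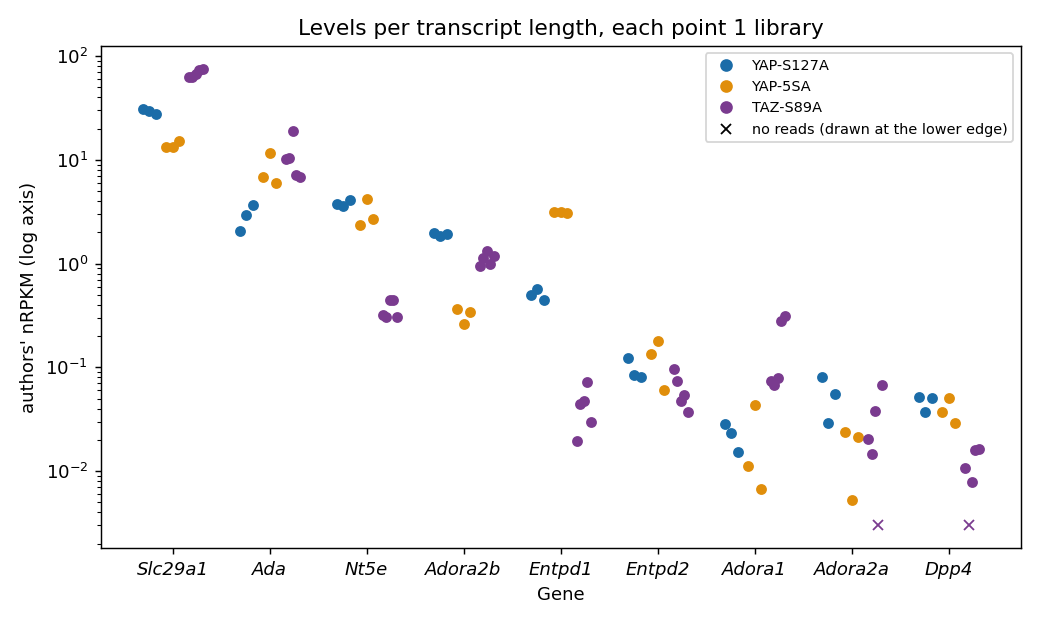
The authors' nRPKM (vertical log axis) of the 9 genes, ordered by their mean over libraries, with 1 point per library and group colours as in the key. Slc29a1 is between 13.4 and 75.5 nRPKM, and crosses mark the 2 libraries without a read of Adora2a or Dpp4.

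The order of the genes per length differed between groups. In YAP-S127A, Slc29a1 (29.45 ± 1.425 nRPKM, SD, n = 3) was followed by Nt5e (3.81 ± 0.237), Ada (2.88 ± 0.792) and Adora2b (1.92 ± 0.0613), and Nt5e and Ada overlapped between libraries. In YAP-5SA, Slc29a1 (13.98 ± 0.998 nRPKM) was followed by Ada (8.17 ± 3.04), Entpd1 (3.12 ± 0.0558) and Nt5e (3.075 ± 0.979), of which the last pair overlapped. In TAZ-S89A, Slc29a1 (68.65 ± 5.80 nRPKM, n = 5) was followed by Ada (10.7 ± 4.85), Adora2b (1.115 ± 0.151) and Nt5e (0.366 ± 0.0754), without overlap. The gene for the step that makes adenosine and that for its deamination therefore stood in different proportion. The ratio of Nt5e to Ada nRPKM within a library was 1.11 to 1.815 for YAP-S127A, 0.345 to 0.445 for YAP-5SA and 0.0237 to 0.0633 for TAZ-S89A. That ratio was chosen after the values were seen and is given as a description, with no test.

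**Figure D4:**
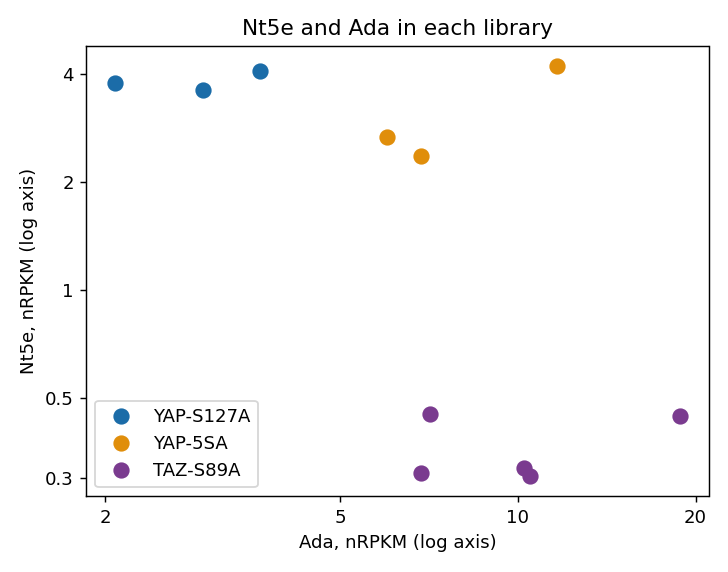
Nt5e (vertical) against Ada (horizontal), both as nRPKM on log axes, with 1 point per library. YAP-S127A lies at low Ada and high Nt5e, YAP-5SA at higher Ada, and TAZ-S89A at Nt5e below 0.450 nRPKM.

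Genes with the most similar profile were sought for each of the 7 members called in at least 2 comparisons with a log2 fold change of at least 1 in size. The measure was the root mean square difference of log2 CPM over 11 libraries, each gene centred on its mean, and the profiles are mostly set by the 3 groups. Nearest to Nt5e came Nradd (0.24), Cavin3 (0.25) and Asrgl1 (0.26), and nearest to Entpd1 came Tlcd2 (0.35), Dhdh (0.35) and Gsta4 (0.35). Adora2b was nearest to Eva1b (0.19), Parp8 (0.215) and Micall2 (0.24). Ada was nearest to Nipsnap1 (0.16), Prl2c3 (0.20) and Gla (0.21), and Slc29a1 to Pdp2 (0.17), Mthfd2l (0.18) and Trim47 (0.19). The scarce genes had looser neighbours, namely Cxcl10 (0.43), Serpine2 (0.49) and Chst7 (0.55) for Adora1, and Matn3 (0.38), Tm6sf1 (0.39) and Ccn2 (0.40) for Dpp4. Ccn2 is a canonical target of YAP and TAZ.

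Genes of neighbouring steps were followed through lists of named genes. Counts of called genes in each list are to be read beside the shares over all tested genes. Those were 57.6% and 57.9% for TAZ-S89A against YAP-S127A and YAP-5SA, and 55.2% for YAP-5SA against YAP-S127A. Of 8 genes for the release of ATP, 6 were tested, and TAZ-S89A had 2 higher and 3 lower than YAP-S127A, and 1 higher and 4 lower than YAP-5SA. The channel gene Panx1 and the vesicular nucleotide transporter gene Slc17a9 were highest in YAP-5SA. Panx1 was at 30.2 ± 2.06 CPM there, 9.09 ± 0.598 in YAP-S127A and 12.8 ± 2.001 in TAZ-S89A. Slc17a9 was at 8.01 ± 1.86 CPM in YAP-5SA, 1.25 ± 0.328 in YAP-S127A and 0.750 ± 0.170 in TAZ-S89A. The channel gene Calhm2 was lowest in YAP-5SA, at 0.212 ± 0.0937 CPM, against 7.935 ± 0.193 in YAP-S127A and 5.75 ± 0.759 in TAZ-S89A. The gap junction gene Gja1 was at 245 ± 61.7, 61.8 ± 8.37 and 137 ± 38.1 CPM in YAP-5SA, YAP-S127A and TAZ-S89A, and all 3 pairs were called.

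Of 11 other ecto-enzymes of nucleotides, 8 were tested, with 4 higher and 2 lower in TAZ-S89A than in YAP-S127A, and 4 higher and 1 lower than in YAP-5SA. Entpd3, a relative of Entpd1, followed its order at 6.54 ± 1.215 CPM in YAP-5SA, 1.57 ± 0.206 in YAP-S127A and 0.0957 ± 0.0522 in TAZ-S89A (TAZ-S89A against YAP-5SA, -6.15, SE 0.29, adjusted p = 4.08e-10, edgeR). Enpp1, which splits ATP to AMP and pyrophosphate, had another order. TAZ-S89A averaged 22.3 ± 4.16 CPM, YAP-S127A 3.39 ± 0.4145 and YAP-5SA 2.51 ± 0.265, an 8.88-fold excess over YAP-5SA (3.15, SE 0.19, adjusted p = 6.13e-09). Bst1, a cyclic ADP-ribose hydrolase, averaged 77.0 ± 13.2 CPM (TAZ-S89A), 9.04 ± 0.571 (YAP-S127A) and 45.01 ± 10.45 (YAP-5SA). TAZ-S89A thus had less of Entpd1, Entpd3 and Nt5e and more of Enpp1 and Bst1 than both YAP groups.

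Inside the cell, 16 of 17 genes of adenosine and AMP metabolism were tested. TAZ-S89A had 5 higher and 1 lower than YAP-S127A, and 2 higher and 6 lower than YAP-5SA, which itself had 7 higher and 0 lower than YAP-S127A. In these comparisons 10, 8 and 9 of the 16 were not called, while 57.6%, 57.9% and 55.2% of all tested genes were called. The AMP deaminase gene Ampd3, whose interval overlaps Rnf141, was at 85.9 ± 11.65 CPM in YAP-5SA, 8.32 ± 0.4485 in YAP-S127A and 10.01 ± 3.52 in TAZ-S89A. Of the 3 tested intracellular relatives of Entpd1, Entpd5 separated the groups at 91.1, 11.5 and 36.5 CPM in YAP-5SA, YAP-S127A and TAZ-S89A, and it overlaps Bbof1. Of 6 other nucleoside transporter genes, 4 were tested. TAZ-S89A had 2 higher and 1 lower than YAP-S127A, and 1 higher and 1 lower than YAP-5SA. The second equilibrative transporter, Slc29a2, was higher in TAZ-S89A by 0.69 (SE 0.13) and 0.50 (SE 0.13) on the log2 scale (adjusted p = 0.000483 and 0.00453, edgeR) against YAP-S127A and YAP-5SA.

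Of 16 further purinergic receptor genes, Adora3 included, 11 were tested, with 5 higher and 3 lower in TAZ-S89A than in YAP-S127A, and 5 higher and 5 lower than in YAP-5SA. The ATP-gated channel gene P2rx7, which overlaps Mir8115, averaged 14.5 ± 0.0729 CPM (YAP-S127A), 1.19 ± 0.306 (YAP-5SA) and 1.44 ± 0.326 (TAZ-S89A). P2rx3, which overlaps Prg3, averaged 21.3 ± 2.315 CPM (YAP-S127A), 4.56 ± 1.19 (YAP-5SA) and 1.84 ± 0.346 (TAZ-S89A). The channel gene P2rx6 was highest in TAZ-S89A, at 3.95 ± 1.37 CPM against 0.319 ± 0.0882 (YAP-S127A) and 0.811 ± 0.246 (YAP-5SA). P2ry14, which overlaps Med12l, was also highest there, at 9.055 ± 1.88 CPM against 3.79 ± 0.0786 (YAP-S127A) and 0.0562 ± 0.0503 (YAP-5SA). The ATP and UTP receptor gene P2ry2 was highest in YAP-5SA (10.6 ± 0.401 CPM), and stood at 3.82 ± 0.240 in YAP-S127A and 4.49 ± 1.13 in TAZ-S89A.

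Downstream of the receptors, 13 of 14 G protein and adenylyl cyclase genes were tested, with 3 higher and 6 lower in TAZ-S89A than in YAP-S127A, and 3 higher and 7 lower than in YAP-5SA. The cyclase gene Adcy3, which overlaps Cenpo, was lowest in TAZ-S89A, at 3.71 ± 0.521 CPM against 23.4 ± 1.41 (YAP-S127A) and 7.17 ± 0.234 (YAP-5SA). Adcy1 averaged 115 ± 56.9 CPM (TAZ-S89A), 22.4 ± 1.26 (YAP-S127A) and 56.7 ± 7.27 (YAP-5SA). Its TAZ-S89A libraries ran from 62.3 to 176.9 CPM, and its highest YAP-5SA library was at 62.1. Adcy7, which overlaps Brd7, averaged 16.3 ± 2.84 CPM (TAZ-S89A), 4.98 ± 0.596 (YAP-S127A) and 1.78 ± 0.544 (YAP-5SA). Of 20 genes of cyclic AMP effectors and breakdown, 19 were tested, with 5 higher and 7 lower in TAZ-S89A than in YAP-S127A, 5 higher and 6 lower than in YAP-5SA, and 4 higher and 11 lower in YAP-5SA than in YAP-S127A. The phosphodiesterase genes Pde4a, Pde7b and Pde3a were highest in YAP-S127A. Pde4a was at 87.15 ± 8.30 CPM there, 8.19 ± 1.45 in YAP-5SA and 5.77 ± 1.09 in TAZ-S89A. Pde7b was at 8.71 ± 0.737 CPM there and had 1 count in each of the other groups. Pde3a was at 6.32 ± 0.158 CPM there and had 2 counts in each of the others, and it overlaps predicted genes. Pde8a was highest in TAZ-S89A, at 22.6 ± 3.52 CPM against 6.27 ± 0.0891 (YAP-S127A) and 0.4785 ± 0.238 (YAP-5SA). Of 7 relatives of Dpp4, 5 were tested. TAZ-S89A had 2 higher and 2 lower than YAP-S127A, and 2 higher and 1 lower than YAP-5SA. The lysosomal peptidase gene Dpp7 was higher in TAZ-S89A, at 153 ± 36.0 CPM against 43.4 ± 0.524 (YAP-S127A) and 49.9 ± 0.628 (YAP-5SA). Dpp8 was lower in TAZ-S89A, at 81.3 ± 10.5 CPM against 184 ± 9.49 (YAP-S127A) and 123.5 ± 13.5 (YAP-5SA).

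**Figure D5:**
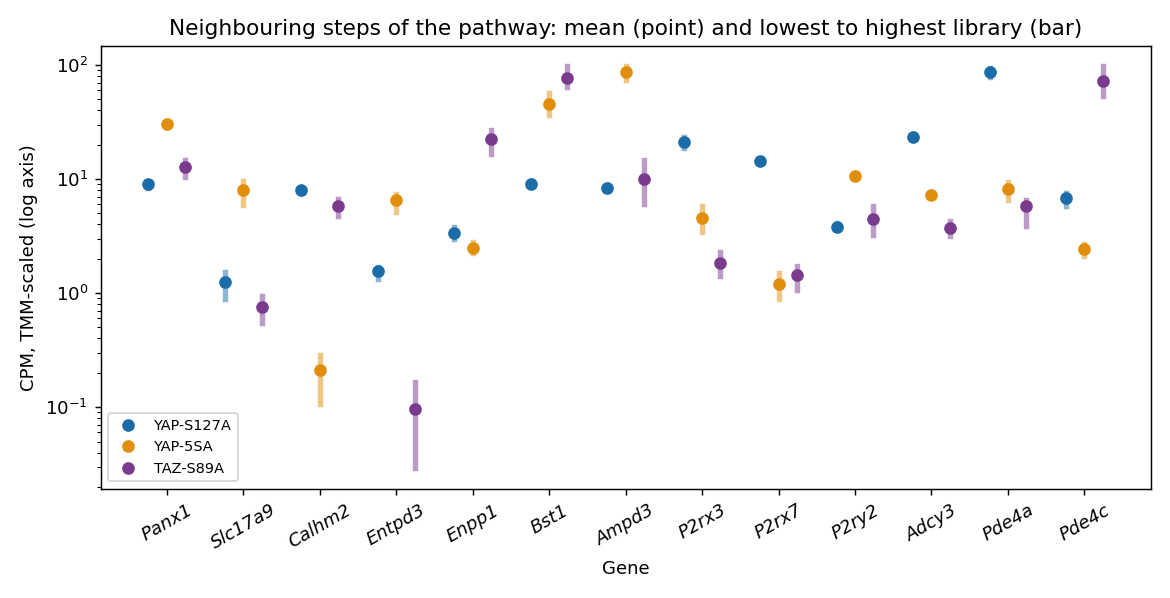
Mean CPM (points, vertical log axis) and lowest to highest library (bars) of 13 genes of neighbouring steps in the 3 groups. Entpd3 falls to 0.0957 CPM in TAZ-S89A while Enpp1 reaches 22.3, and Pde4a is at 87.15 in YAP-S127A.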

How the data were processed

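PolyA RNA of 11 libraries was analysed, each in the group named by its mutation label, with replicates numbered in order of deposition. Deposited counts are of reads with a unique alignment to a gene model, per the file headers. The deposited nRPKM values are RPKM that the authors scaled by size factors, per the file headers, and were used only to compare levels between genes. Reads were aligned with GSNAP to GRCm38, per the submitters' processing notes. The sources used here do not give its version, the counting tool, the annotation release or the strand setting.

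RefSeq (GRCm38.p6) symbols and coordinates matched 31049 of 36528 IDs, and the rest held 2.91% of counts and stayed in the totals. Counts were fitted with edgeR 4.0.16 in R 4.3.3 (filterByExpr, TMM, robust quasi-likelihood, 3 groups, all libraries), which tested 18224 genes. The SE is the log2 fold change divided by the square root of the F statistic. The fit shares 1 estimate of spread, though the coefficient of variation between libraries (square root of edgeR's common dispersion) was 0.0896 (YAP-S127A), 0.174 (YAP-5SA) and 0.246 (TAZ-S89A). Depth was 20071144 to 49159713 counts per library, which leaves genes of a few counts imprecise.

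Members and lists were chosen with earlier results of these data known. Named from each list are called genes with the largest absolute log2 fold change, up to 4 per comparison, at an average log2 CPM of at least 0, and not all of these are printed. Nearest profiles were sought among named tested genes at the same minimum. Alternatives were other scaling factors (upper-quartile, RLE), other tests (limma-voom with limma 3.58.1, DESeq2 1.42.0), no filter, a strict filter (1 CPM in 3 libraries and an average log2 CPM of 1), only the groups compared, no second ID series, TAZ-S89A replicates 1 and 2, and 4 and 5, summed, a call that also needs a log2 fold change of 1 in size, and each library omitted in turn. Protein sequences were not used here.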

Additional observations from a re-analysis of the deposited data

How the results depend on the processing

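The number of called members stayed within 1.5 times its value in each comparison under all 21 alternatives, and 18 of the 24 differences of single genes kept both direction and side of the threshold wherever they were tested. Called members ran from 5 to 7 for TAZ-S89A against YAP-S127A, from 4 to 7 against YAP-5SA and from 4 to 5 between the YAP groups. The lowest counts came with the strict filter, which removes Adora1, Dpp4 and Entpd2 as too scarce. Adora2b against YAP-S127A (-0.78) does not reach a log2 fold change of 1 in size. Direction turned only in differences between the YAP groups that were not called: Entpd2 ranged from -0.0016 (YAP-5SA replicate 2 omitted) to 0.70 over omitted libraries, and Adora1 from -1.29 to 0.31, with 0.16, 0.31 and 0.12 when YAP-5SA replicate 1, YAP-5SA replicate 3 or YAP-S127A replicate 1 was omitted, and the cause was not tested. Calls gained when libraries were left out are given beside Nt5e, Entpd2 and Ada. No paired analysis was possible because the labels give no replicate numbers. Depth limits Entpd2, Adora1, Adora2a and Dpp4, whose groups hold from 9 to 163 counts.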
